A study of Mus musculus with 2 samples.

Results

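The genes of diacylglycerol signalling examined here were 6 protein kinase C genes (Prkca, Prkcb, Prkcd, Prkce, Prkch and Prkcq), 2 RasGRP genes (Rasgrp1 and Rasgrp4) and 2 diacylglycerol kinase genes (Dgka and Dgkz). The assay was ATAC-seq, which marks open chromatin as DNA that the Tn5 transposase can reach and tag, and the cells were mast cells grown from mouse bone marrow. The data were 1 library of cells grown from DNMT3A-KO mice, which lack the de novo DNA methyltransferase Dnmt3a, and 1 library of cells from wild-type littermates. All animals were females, given as 3 weeks old in the design and 3 to 4 weeks old in the growth protocol. Both cultures were kept for 4 weeks in interleukin 3, with no stimulus, and over 95% of the cells carried Kit and the IgE receptor per the labels. The labels do not state how the Dnmt3a allele was made, in which cells it was deleted or how many animals gave each culture.

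Each library came as its own list of called peaks, overlapping peaks were joined into regions, and each region went to the closest protein-coding gene interval up to 100 kb away. By this rule 66 of 23364 regions belonged to the 10 genes, with 61 of 19684 knockout peaks and 47 of 17170 wild-type peaks. The genes were chosen by pathway with the peak calls of these libraries known, so their region counts are a description and carry no test. There was 1 library per genotype. Differences between the genotypes thus have no replicate check. The 95% intervals of shares and pileups are exact and cover counting error alone. Those of medians reflect the spread among peaks or regions. Intervals of shares and of medians both take the regions of one gene as independent. Prkca and Prkcb carried 34 of the 66 regions, so these intervals may be too narrow. In a bulk library, more cells with an open site and a more open site per cell cannot be told apart. All coordinates are 1-based on mm10.

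Diacylglycerol is the lipid that phospholipase C gamma releases when the IgE receptor or Kit is engaged. It recruits protein kinase C and the RasGRP exchange factors to the membrane through their C1 domains, and protein kinase C activity is known to drive mast cell degranulation while RasGRP proteins load Ras with GTP. Diacylglycerol kinases end the signal by turning diacylglycerol into phosphatidic acid.

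Over the 10 genes together, 20 regions were knockout-only, 6 wild-type-only and 40 shared. Knockout-only regions were 30.3% (interval 19.6 to 42.9) against 28.0% of all regions, and wild-type-only regions 9.09% (3.41 to 18.7) against 16.9%. Shared regions were 60.6% (47.8 to 72.4) against 55.1%. Of the unshared regions 76.9% (56.4 to 91.0) were knockout-only, against 62.3% over all regions, and 72.2% (46.5 to 90.3) without Prkca. In each case the share over all regions lay inside the interval of the 10 genes. The knockout list was the longer one over the whole genome. With the strongest peaks of both lists taken in equal number, the 10 genes had 16 knockout-only, 7 wild-type-only and 39 shared regions. The shares over all regions were not computed at this setting, so these counts have no background to be read against.

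Knockout-only regions outnumbered wild-type-only ones at 6 of the 9 genes with a region (Prkca, Prkcb, Prkcd, Prkce, Prkcq and Rasgrp1), against 32.2% of all genes with a region. The order was the other way at 1 (Prkch), against 17.5% of all such genes. Genes with many regions, such as Prkca and Prkcb, have more chances to differ, so these shares are not on equal terms. At Prkcq the excess was gone under 6 of 8 alternative settings. At Prkce it was gone when regions went to the nearest gene of any type.

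**Figure D1:**
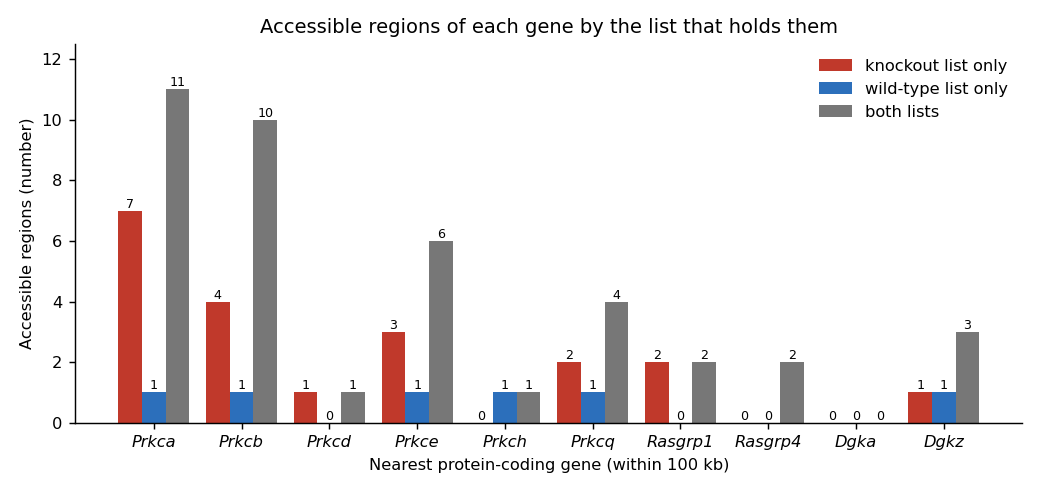
Number of accessible regions of each gene (bars) found in the knockout list only, in the wild-type list only and in both. Shared regions are the largest class at 6 genes, Prkca has 7 knockout-only regions and Dgka has no region.

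Among the genes with a listed transcription start, presence at a start differed at Rasgrp1, Prkcd and Dgkz. Prkce, Prkch and Rasgrp4 had no listed start and could not be compared in this way. Promoter windows from RefSeq (GRCm38.p6, 250 bases before to 50 bases after a listed start) were found for 12 starts of 7 of the genes. Of these 12 windows, 3 met a peak of both lists, 2 a knockout peak only, 1 a wild-type peak only and 6 no peak. Over all 21044 windows of protein-coding genes, 24.9% met peaks of both lists, 5.08% a knockout peak only and 3.23% a wild-type peak only. Counts of 2 and 1 among 12 windows are too few to be read against these shares.

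The stretches of these windows that lie before the start and under a peak are shown because they are the promoter DNA called open in one or both genotypes. They run 5′ to 3′ on the gene's strand, and capitals mark matches to the motifs searched. The Rasgrp1 stretch is chr2:117342878-117343043 on the minus strand, under a knockout peak only. The Prkcd stretch is chr14:30626209-30626324 on the minus strand, also under a knockout peak only. The inner of 2 listed Dgkz starts gives chr2:91950349-91950492 on the minus strand, under a wild-type peak only.
Rasgrp1: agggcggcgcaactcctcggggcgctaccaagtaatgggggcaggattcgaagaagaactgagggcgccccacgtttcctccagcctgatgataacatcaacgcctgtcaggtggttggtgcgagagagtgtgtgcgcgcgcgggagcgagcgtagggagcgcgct
Prkcd: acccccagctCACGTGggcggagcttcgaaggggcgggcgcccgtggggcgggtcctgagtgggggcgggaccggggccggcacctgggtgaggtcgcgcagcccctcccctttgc
Dgkz inner start: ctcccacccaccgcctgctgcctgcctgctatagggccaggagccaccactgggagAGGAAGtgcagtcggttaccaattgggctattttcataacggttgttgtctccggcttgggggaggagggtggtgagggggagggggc

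The next 3 stretches join the DNA under a knockout peak and under a wild-type peak, and parts of each lie under one of the peaks alone. They are chr11:108343889-108344138 on the minus strand for Prkca, chr7:122288932-122289124 on the plus strand for Prkcb and chr2:91963605-91963813 on the minus strand for the outer Dgkz start.
Prkca: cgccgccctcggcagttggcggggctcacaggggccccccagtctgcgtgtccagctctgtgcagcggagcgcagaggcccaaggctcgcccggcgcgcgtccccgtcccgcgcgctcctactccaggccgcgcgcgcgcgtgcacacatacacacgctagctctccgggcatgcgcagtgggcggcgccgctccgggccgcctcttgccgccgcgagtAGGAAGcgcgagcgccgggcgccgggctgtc
Prkcb: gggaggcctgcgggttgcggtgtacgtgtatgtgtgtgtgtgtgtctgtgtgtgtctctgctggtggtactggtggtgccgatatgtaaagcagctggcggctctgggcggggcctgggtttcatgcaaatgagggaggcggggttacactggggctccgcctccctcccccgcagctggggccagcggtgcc
Dgkz outer start: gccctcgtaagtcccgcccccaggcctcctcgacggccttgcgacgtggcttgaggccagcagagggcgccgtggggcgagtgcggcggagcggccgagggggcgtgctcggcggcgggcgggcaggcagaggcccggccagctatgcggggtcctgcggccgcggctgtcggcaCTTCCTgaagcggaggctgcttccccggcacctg

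Both strands of the 12 windows were searched for the letters AGATAA as the motif of GATA factors, TGTGGT for RUNX, AGGAAG for ETS, TGANTCA for AP-1 and TGGAAA for NFAT. The E-box motif was searched as CACGTG and, in a second form, as CATGTG. ETS letters were in 8 of the 12 windows and in 34.1% of all windows. E-box letters were in 2 and NFAT letters in 3, against 18.9% and 19.5% of all windows. Of the 12 windows 4 were of Dgka, 2 of them overlapping, and these gave 3 of the 8 windows with ETS letters and all 3 with NFAT letters, so the counts rest in part on repeated starts of 1 gene. GATA, RUNX and AP-1 letters were in 0 of the 12, against 9.68%, 14.8% and 7.04%. In the printed stretches, an E-box match began 106 bases before the Prkcd start, under the knockout peak. An ETS match began 31 bases before the Prkca start, under the wild-type peak and outside the knockout peak. ETS matches also began 88 bases before the inner and 75 bases before the outer Dgkz start. A match of letters is not evidence of a bound factor.

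The windows differed in their CpG content, the dinucleotide that Dnmt3a can methylate. The outer Dgkz window held 43 CpGs and the Prkca window 42, more than 96.6% and 96.1% of all windows. The Prkcd and Rasgrp1 windows, with knockout peaks only, held 26 each. The Prkcb window held 19 and the inner Dgkz window, with the wild-type peak only, 10. Over all windows the median was 23 CpGs where peaks of both lists were met, 22 where only a knockout peak was met, 21 where only a wild-type peak was met and 6 where neither was. The Prkcq window held 37 CpGs and met no peak. Methylation itself was not measured.

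**Figure D2:**
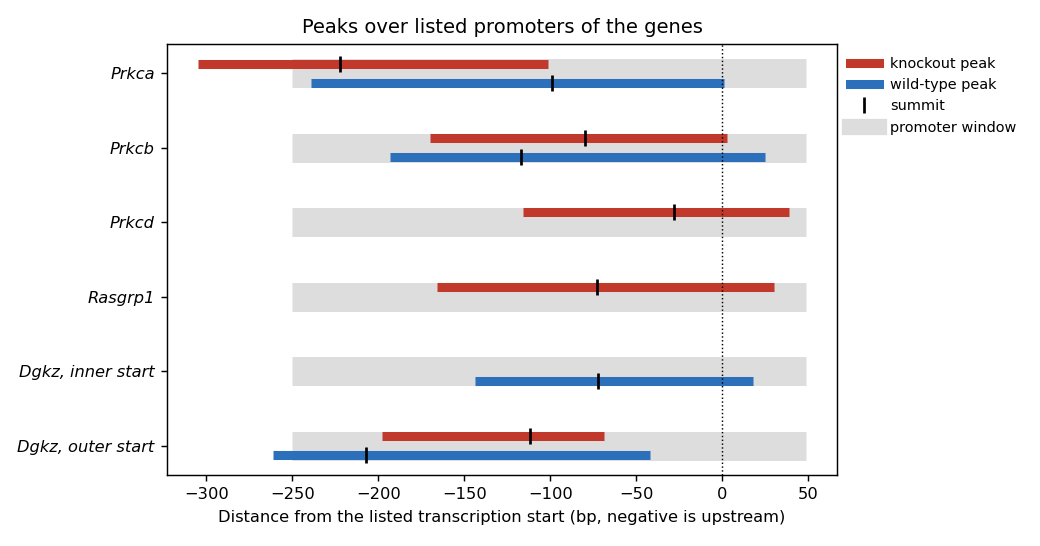
Extent of the knockout peak (red) and the wild-type peak (blue) over 6 listed promoters, in bp from the transcription start, with a tick at each summit and the promoter window in grey. Knockout peaks alone covered the Prkcd and Rasgrp1 starts, and a wild-type peak alone covered the inner Dgkz start.

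The RasGRP genes had 6 of the 66 regions. Rasgrp1, a Ras exchange factor that diacylglycerol recruits, had 2 knockout-only, 0 wild-type-only and 2 shared regions. The promoter peak of the knockout list (chr2:117342847-117343043) ran from 166 bp before to 30 bp after the start and was 197 bp wide. Its summit, 73 bp before the start, had a pileup of 12 overlapping fragments (interval 6.20 to 21.0) and a −log10 q of 11.9 in the authors' list, above 67.2% of knockout peaks. The wild-type list held no peak at this start. Its nearest peak lay 14243 bp away, at a shared region inside the gene.

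That shared region (chr2:117328398-117328618) was the strongest of Rasgrp1 in both lists, with pileups of 15 in knockout and 13 in wild-type cells. The other knockout-only region (chr2:117304435-117304539) was weak, with a pileup of 7. The second shared region (chr2:117374430-117374626) lay 31.6 kb outside the gene and had a pileup of 6 in both lists, with a width of 197 bp in knockout and 107 bp in wild-type cells. A further knockout-only region (chr2:117447032-117447166) had Rasgrp1 as its nearest gene but lay 104 kb away, just past the 100 kb limit. The farthest region inside the limit was a shared one 73.9 kb from Prkcq.

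Rasgrp4, a RasGRP gene known for its expression in mast cells, was the gene with the most even picture. Both of its regions were shared and it had no other by the nearest-gene rule. The first (chr7:29134762-29134976) began 0.155 kb inside the lower-coordinate end of the gene. Its peak had a pileup of 17, a −log10 q of 20.5 and a width of 205 bp in the knockout list, against 11, 13.2 and 157 bp in the wild-type list. Counting intervals of the pileups, 9.90 to 27.2 in knockout and 5.49 to 19.7 in wild-type cells, overlapped. The second (chr7:29144114-29144241), in mid-gene, had pileups of 8 in knockout and 10 in wild-type cells. A shared region 1549 bp outside the gene (chr7:29155510-29155685) went to Fam98c, with pileups of 10 in knockout and 9 in wild-type cells.

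Prkca and Prkcb, whose products need both calcium and diacylglycerol, carried 34 of the 66 regions. Prkca had 7 knockout-only, 1 wild-type-only and 11 shared regions. Of 21627 protein-coding genes, 5 including Prkca had 19 or more regions and 6 including Prkca had 7 or more knockout-only ones. Prkca is long, at 411 kb, but regions overlapped it at 4.38 per 100 kb, a density reached by 72, Prkca included, of the 2426 genes of at least 100 kb. The median of those genes was 0.681 per 100 kb.

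The Prkca regions were crowded in the part of the gene nearer to its start. A stretch of 45.1 kb (chr11:108235193-108280258), between about 63.6 and 109 kb downstream of the start, held 11 regions, of which 4 were knockout-only, 1 wild-type-only and 6 shared. Of all 23364 windows of 50 kb that begin at a region, 5 (0.0214%), this one included, held as many. It was picked as the fullest window of Prkca, and windows that begin at neighbouring regions overlap. The strongest knockout peak of Prkca was in it, at a shared region (chr11:108235409-108235651) with pileups of 20 in knockout and 17 in wild-type cells. The wild-type-only region (chr11:108235193-108235302, pileup 11) lay 107 bp from the knockout peak of that same region.

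Other strong shared regions of Prkca had like pileups in both lists. At chr11:108223202-108223432 the pileup was 15 in knockout and 15 in wild-type cells, and at chr11:108149324-108149540 it was 15 in knockout and 16 in wild-type cells. At chr11:108249698-108249868 it was 14 in knockout and 17 in wild-type cells.

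The knockout-only regions of Prkca were mostly weak, with pileups from 5 to 12. The 2 strongest were at chr11:108315904-108316088 (pileup 11), 27.8 kb downstream of the start, and chr11:108236872-108236990 (pileup 12). The neighbours chr11:108273159-108273270 and chr11:108273306-108273407 lay side by side, both with a pileup of 7 and a −log10 q of 4.29, above only 3.92% of knockout peaks. They lay 349 and 496 bp from a wild-type peak. The other 3 were at chr11:108032670-108032798 (pileup 7), chr11:108280080-108280258 (pileup 5) and chr11:108367200-108367363 (pileup 7), the last 23.3 kb outside the gene. The first of these stood farthest from any wild-type peak, 115850 bp away.

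At the Prkca promoter both lists had a peak but at shifted positions. The knockout peak reached from 305 to 101 bp before the start with its summit at 222 bp, and the wild-type peak from 239 bp before to 1 bp after it with its summit at 99 bp. Pileups were 15 in both lists. The 123 bp between the summits was the longest such distance among the 39 shared regions with 1 peak in each list.

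Prkcb, the protein kinase C gene with known roles in IgE-driven secretion in mice, had 4 knockout-only, 1 wild-type-only and 10 shared regions, all overlapping the gene. Its density, 4.34 per 100 kb over 345 kb, was close to that of Prkca. The unshared regions lay apart along the gene. The wild-type-only one (chr7:122314188-122314287, pileup 7) lay 25.1 kb from the start, and the 4 knockout-only ones 162, 211, 240 and 311 kb from it. The strongest of these were chr7:122599953-122600066 and chr7:122451393-122451563, each with a pileup of 9. The others were chr7:122500005-122500129 and chr7:122529280-122529412, each with a pileup of 7.

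Shared Prkcb regions varied in both directions. At chr7:122329648-122329905 the pileup was 16 in knockout and 8 in wild-type cells, with widths of 197 and 123 bp in knockout and wild-type cells, and summits 78 bp apart. At chr7:122390228-122390398 the pileup was 17 in knockout and 11 in wild-type cells with summits 1 bp apart. At chr7:122296449-122296637 the order was the other way, 9 in knockout and 14 in wild-type cells, as it was at chr7:122425862-122426101, with 11 in knockout and 15 in wild-type cells. So too at chr7:122415466-122415654, picked after its values were seen, with 7 in knockout and 13 in wild-type cells. The counting intervals of each of these pairs overlapped. At chr7:122340766-122341003 the knockout peak was 103 bp wider, 238 against 135 bp in wild-type cells, the largest gain in width among the 39 pairs. The promoter peaks had a pileup of 12 in both lists and were 174 bp wide in knockout and 219 bp in wild-type cells.

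**Figure D3:**
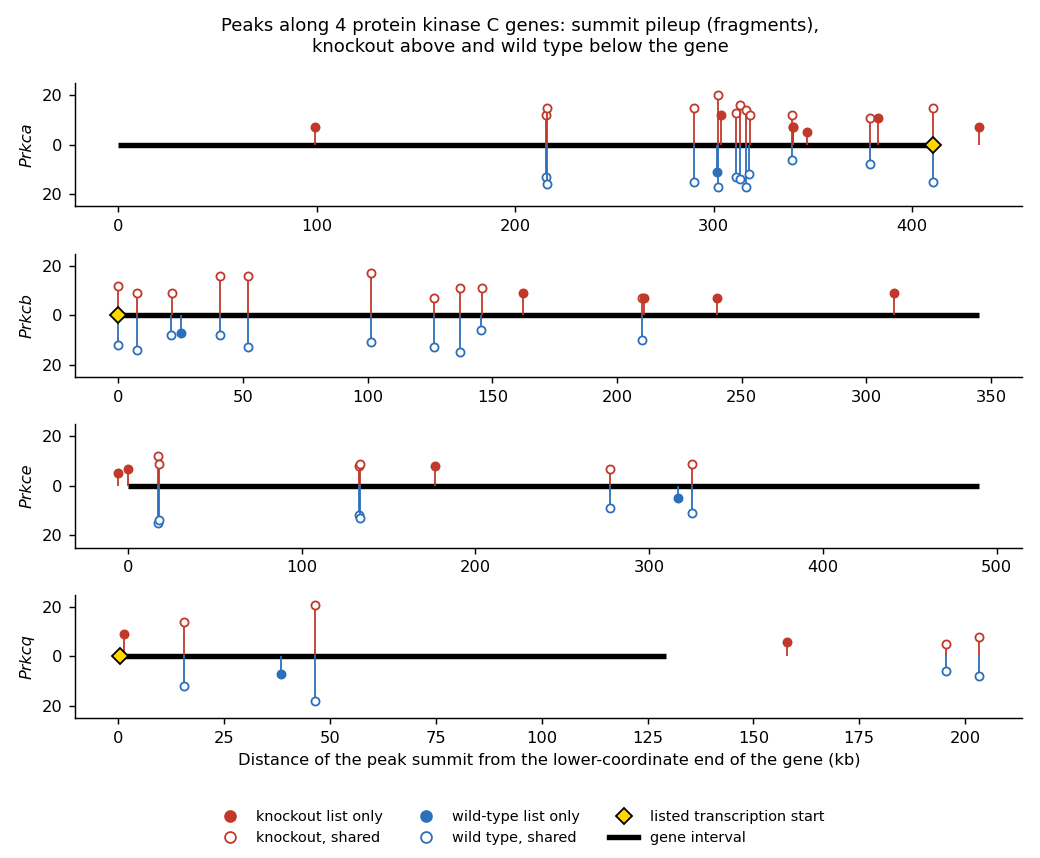
Summit pileup of every peak along Prkca, Prkcb, Prkce and Prkcq, in overlapping fragments, knockout above and wild type below the gene (black bar), against the distance of the summit from the lower-coordinate end in kb. Filled points are peaks in 1 list only, open points belong to shared regions, and diamonds mark listed starts; Prkca shows its crowded stretch and Prkcb its 4 knockout-only peaks far from the start.

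Prkcd, Prkce, Prkch and Prkcq encode isoforms that respond to diacylglycerol without calcium. Prkcd had 1 shared region (chr14:30620104-30620538), 5.67 kb from the nearest listed start, which joined 2 peaks of each list. Knockout pileups there were 13 and 20, and wild-type pileups 8 and 13. The knockout-only region was the promoter peak (chr14:30626169-30626324), from 116 bp before to 39 bp after the start, with a pileup of 11 and a −log10 q of 6.99, above 33.1% of knockout peaks. The nearest wild-type peak was 5631 bp away.

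Prkce, at 490 kb the longest of the 10 genes, had 3 knockout-only, 1 wild-type-only and 6 shared regions. A knockout-only region (chr17:86167572-86167689, pileup 7) lay 96 bp outside the lower-coordinate end of the gene, and another (chr17:86162053-86162152, pileup 5) 5633 bp outside it. The third (chr17:86344150-86344297) lay inside the gene with a pileup of 8, and the wild-type-only one (chr17:86484297-86484396) had a pileup of 5.

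The 6 shared regions of Prkce were all narrower in knockout than in wild-type cells, by 3 to 83 bp. At chr17:86184972-86185139 pileups were 12 in knockout and 15 in wild-type cells, and at chr17:86185682-86185853 they were 9 in knockout and 14 in wild-type cells. At chr17:86300720-86300876 they were 8 in knockout and 12 in wild-type cells, and at chr17:86301333-86301552 they were 9 in knockout and 13 in wild-type cells. At chr17:86444983-86445197 they were 7 in knockout and 9 in wild-type cells, and at chr17:86492506-86492663 they were 9 in knockout and 11 in wild-type cells. The knockout pileup was thus the lower one at all 6, with overlapping counting intervals at each. Width and pileup of a peak come from the same reads, so their orders are not separate observations. The knockout peak at chr17:86300720-86300876 was 100 bp wide, the smallest width in either list. Over all 12299 shared regions with 1 peak per list, 56.7% were wider in knockout cells. Library totals are not in the lists, so pileups were not scaled to depth.

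Prkch, which had the lowest density of the 5 genes over 100 kb (0.517 per 100 kb), was the gene with a wild-type-only and no knockout-only region. That region (chr12:73598413-73598535) had a pileup of 7 and stood 180783 bp from the nearest knockout peak. Its shared region (chr12:73779318-73779567) lay outside the gene by 1.13 kb and ranked 4572 of 19684 in the knockout list and 1485 of 17170 in the wild-type list. The pileup was 14 in knockout and 17 in wild-type cells, and the knockout peak was 65 bp wider.

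Prkcq, known for its role at the T cell synapse and also expressed in mast cells, held the strongest region of all 10 genes in both lists. At chr2:11218198-11218454, inside the gene and 45.8 kb from its listed start, the −log10 q was 26.1 in the knockout list (rank 822 of 19684) and 20.4 in the wild-type list (rank 1294 of 17170). Pileups were 21 in knockout and 18 in wild-type cells. A second shared region in the gene (chr2:11187251-11187462) had pileups of 14 in knockout and 12 in wild-type cells.

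The unshared regions of Prkcq had pileups from 6 to 9, and its shared regions outside the gene had pileups from 5 to 8. A knockout-only one (chr2:11173192-11173324, pileup 9) lay 810 bp downstream of the listed start, and the wild-type-only one (chr2:11210366-11210487, pileup 7) farther inside. The second knockout-only region (chr2:11329673-11329776, pileup 6) lay 28.4 kb outside the gene with a −log10 q of 3.73, above 1.43% of knockout peaks. Shared regions at 66.2 kb (chr2:11367389-11367558) and 73.9 kb (chr2:11375138-11375355) had pileups of 5 and 8 in knockout cells and of 6 and 8 in wild-type cells.

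Among the diacylglycerol kinase genes, Dgkz had 1 knockout-only, 1 wild-type-only and 3 shared regions. The wild-type-only region at the inner start (chr2:91950330-91950492) was the strongest unshared region of the 10 genes, with a pileup of 18 (interval 10.7 to 28.4) and a −log10 q of 14.7, above 81.2% of wild-type peaks. The knockout list had a peak of its own 2325 bp away (chr2:91947855-91948005), with a pileup of 15 (8.40 to 24.7) and a −log10 q of 10.8. Both lie inside the gene.

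At the outer Dgkz start the lists shared a region with a pileup of 10 in both. The knockout peak was 130 bp wide with its summit 112 bp before the start, and the wild-type peak 220 bp wide with its summit 207 bp before it. The region near the lower-coordinate end (chr2:91934127-91934293) had pileups of 13 in knockout and 12 in wild-type cells. The one outside the gene (chr2:91978078-91978251) had 7 in both.

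Dgka had no region in either list, although 49.6% of protein-coding genes had one in the knockout list and 46.4% in the wild-type list. None of its 4 listed promoter windows met a peak. The nearest region (chr10:128747738-128747886) lay 2654 bp outside the gene and overlapped its neighbour Pym1, with pileups of 13 in knockout and 11 in wild-type cells. A knockout-only region (chr10:128748396-128748505, pileup 7) 3312 bp outside also fell to Pym1. The absence of a call does not show that the Dgka promoter is closed.

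Unshared regions were mostly weak in both lists. In knockout cells the median pileup was 7 (range 5 to 15) for the 20 knockout-only peaks and 12 (5 to 21) for the 41 peaks of shared regions. In wild-type cells it was 7 (5 to 18) for the 6 wild-type-only peaks and 12 (6 to 18) for the 41 shared ones. Over the whole lists the medians were 6 for unshared peaks of either list, and 11 for knockout and 10 for wild-type peaks of shared regions. Of the 26 unshared regions, 3 had a peak of the other list within 1 kb, all at Prkca: 2 of the 20 knockout-only and 1 of the 6 wild-type-only regions. Over the whole genome, 819 of 6541 knockout-only and 769 of 3952 wild-type-only regions had one.

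**Figure D4:**
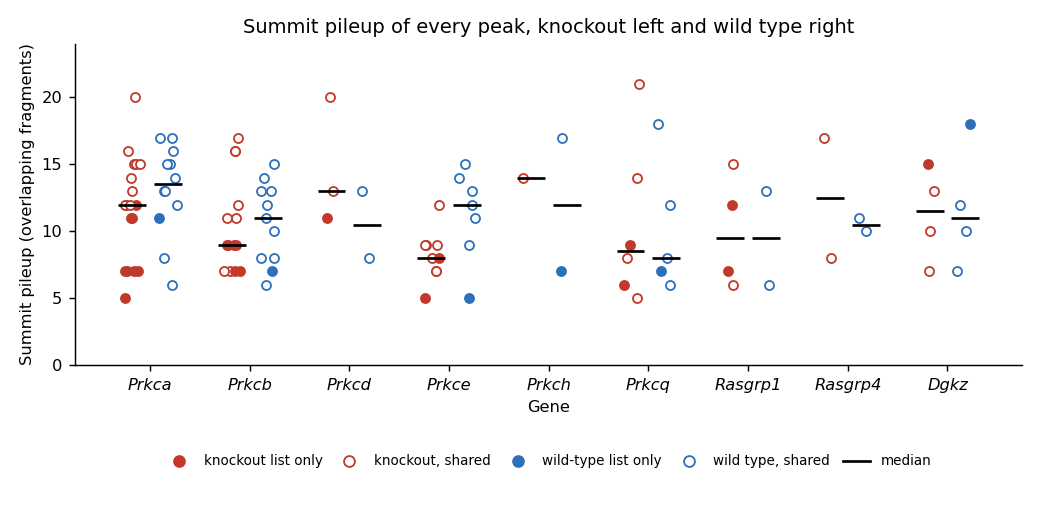
Summit pileup of every peak of each gene, in overlapping fragments, with knockout peaks left and wild-type peaks right and a bar at the median. Filled points are peaks found in 1 list only; the wild-type-only Dgkz peak at 18 and the knockout-only Dgkz peak at 15 stand above the other unshared ones.

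Peak widths did not move one way across the genes. Peaks had a median width of 156 bp (interval 132 to 171) in knockout and 158 bp (133 to 172) in wild-type cells, against 154 and 150 bp over the whole knockout and wild-type lists. Among the 39 shared regions with 1 peak in each list, 20 were wider in knockout and 19 in wild-type cells. The median difference, knockout minus wild type, was 6 bp (interval -25 to 22), against 9 bp over all 12299 such regions. It ranged from -90 bp at the outer Dgkz start to 103 bp in Prkcb. No peak of either list was narrower than 100 bp, which bounds these differences. Of the peaks of the 10 genes, 4 in knockout and 4 in wild-type cells had that width. By gene, 8 of 11 Prkca regions and 5 of 10 Prkcb regions were wider in knockout cells, against 0 of 6 in Prkce.

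Summits of shared regions were 25 bp apart at the median (range 1 to 123), against 28 bp over all such regions. They lay within 50 bp of each other in 32 of 39 regions (82.1%), against 74.8% overall.

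**Figure D5:**
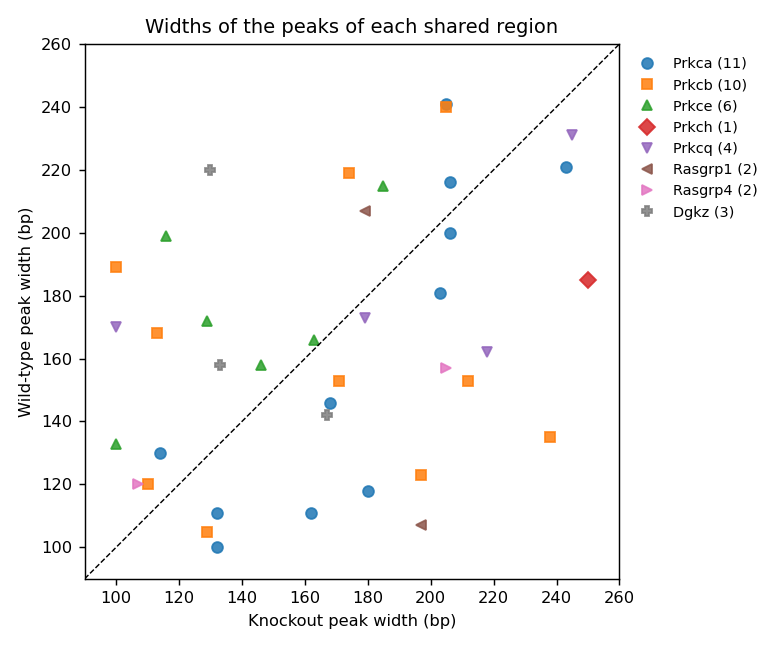
Width of the knockout peak (horizontal axis, bp) and of the wild-type peak (vertical axis, bp) for the 39 shared regions with 1 peak in each list, with the number of regions per gene in the legend and the line of equal width dashed. Points spread to both sides of the line, all 6 Prkce regions lie above it (narrower in knockout cells) and 8 of 11 Prkca regions below it (wider in knockout cells).

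Regions of the 10 genes lay mostly inside the genes, as most regions of the series did. Of all 23364 regions, at any distance from a gene, 15918 lay inside or crossed a protein-coding gene. Of the 66, 54 lay wholly within the gene interval, 3 crossed an end and 9 lay outside. The 3 that crossed were the promoter regions of Prkca, Prkcb and Rasgrp1. Of the 52 regions at genes with a listed start, 7 lay within 1000 bp of one, and no such count was made over all regions.

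A list of 40 other genes of the pathway, from phospholipases to Ras effectors, was assigned 91 regions: 32 in the knockout list alone, 13 in the wild-type list alone and 46 in both. Of the unshared regions 71.1% were knockout-only, against 62.3% over all regions. No interval was computed for this share, and Dgki and Chn2 each gave 4 of the 32 knockout-only regions. A region was present in the knockout list for 31 genes and in the wild-type list for 27, against 49.6% and 46.4% of all protein-coding genes. With equal numbers of peaks in both lists, these counts were 26 and 27. The shares over all genes were not computed at this setting. Knockout-only regions outnumbered wild-type-only ones at 12 genes, the order was the other way at 2, and 26 were even, 9 of these with no region. Of all genes with a region, 32.2% had more knockout-only and 17.5% more wild-type-only regions. The median difference was 0, as it was over all genes.

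Among the genes of that list with the largest difference, Dgki, another diacylglycerol kinase gene, had 4 knockout-only, 0 wild-type-only and 4 shared regions. Chn2, which encodes a diacylglycerol-binding Rac GTPase-activating protein, had 4 knockout-only, 2 wild-type-only and 4 shared regions. Nf1, a Ras GTPase-activating protein, had 2 knockout-only and 2 shared regions. Prkci, an atypical protein kinase C that does not bind diacylglycerol, had 2 knockout-only regions and 1 shared region. The 2 genes with more wild-type-only regions, named after their values were seen, were Plcg2, a phospholipase C gamma gene with 2 knockout-only, 3 wild-type-only and 3 shared regions, and Dgkg, with 1 knockout-only and 2 wild-type-only ones. The other RasGRP genes, Rasgrp2 and Rasgrp3, had no region.

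Across the series, the median summit pileup was 9 in both lists, which sets the depth behind a call. Regions were present in the knockout and wild-type lists for 10 and 9 of 10 mast cell markers, Hdc being the one with a knockout-only region alone. The numbers in knockout and wild-type cells were 3 and 3 of 8 for neutrophil, 3 and 4 of 7 for macrophage, 1 and 0 of 5 for B cell, 3 and 3 of 6 for T and NK cell, 6 and 5 of 7 for erythroid and megakaryocyte and 1 and 2 of 3 for basophil markers. The unshared regions of these lists were 9 knockout-only and 10 wild-type-only at mast cell markers, 5 and 0 at erythroid and megakaryocyte, 3 and 0 at T and NK cell, 1 and 0 at B cell, 3 and 2 at basophil, 3 and 3 at macrophage and 1 and 1 at neutrophil markers, against 62.3% knockout-only over all unshared regions. Over all protein-coding genes, 49.6% had a region in the knockout list and 46.4% in the wild-type list. The 3 knockout-only regions at T and NK cell markers were all at Tcf7. The part of other cells in the results above was not tested. At Dnmt3a itself 1 region was knockout-only, 2 were wild-type-only and 4 were shared, and without the position of the deletion this does not check the labels in full.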

How the data were processed

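ATAC-seq peak lists of 1 Dnmt3a knockout and 1 wild-type mast cell culture were used. Per the labels' protocols, nuclei prepared with 0.1% Igepal were treated with home-made Tn5, and 10 M single reads of 50 bp are stated per library. Per the submitters' processing notes, the tools were Trimmomatic, Bowtie2 and MACS2 and the build mm10 (GRCm38). Settings and a Tn5 cut-site correction, which would displace edges and summits slightly, are not given here.

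For every peak the authors deposited a score, a fold enrichment over local background and −log10 p-values and q-values; these are their own values and rank peaks within a list. The score was 10 times the −log10 q-value, cut to a whole number, in 100% of peaks of the deposited lists. The deposited fold (pseudocount 1) and Poisson −log10 p gave a whole-number summit pileup for 100% of peaks (tolerance 0.001). Depth per library is not in the lists.

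Peaks overlapping by at least 1 bp were merged, and each region went to the nearest of 21627 protein-coding intervals of GRCm38.p6 (RefSeq) on chromosomes 1 to 19 and X, ties to all. These intervals carry no exons, so exonic and intronic positions are not given. Starts and promoter sequences came from RefSeq, for 7 of the 10 genes. With 1 library per genotype no test was made. Shares have Clopper-Pearson, pileups exact Poisson and medians order-statistic intervals. Python 3.11.15, NumPy 2.4.6, pandas 2.3.3, SciPy 1.17.1 and matplotlib 3.10.9 were used. On simulated data all 1029 pileups, 400 placed regions and 400 gene assignments were recovered.

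The genes and lists were chosen with earlier results of these data known. All regions of genes with at most 12 were to be described, and for the others the unshared and the 5 strongest shared ones. Up to 6 pathway genes were named by how far their unshared regions differed in number between the lists; some are not reported here. Alternatives were a stricter −log10 q limit (5), equal list lengths, other overlap rules and other gene assignments.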

Additional observations from a re-analysis of the deposited data

How the results depend on the processing

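No paired analysis was possible because there was a single library of either genotype. Under 8 alternatives the 10 genes had 16 to 21 knockout-only, 6 to 7 wild-type-only and 36 to 41 shared regions. Of the unshared regions, 69.6 to 76.9% were knockout-only, but shares over all regions were not computed under these alternatives. The median width of the peaks of the 10 genes ran from 148 to 162 bp in knockout and 157 to 158 bp in wild-type cells. The median width difference, knockout minus wild type, turned from 6 bp to -3 bp when regions went to the nearest gene of any type; the cause was not tested. By gene, knockout-only minus wild-type-only regions ran from 4 to 6 at Prkca, 2 to 3 at Prkcb, 0 to 2 at Prkce and 0 to 1 at Prkcq. The value at Prkcq was 0 under 6 of the 8 alternatives. The difference stayed at 2 for Rasgrp1, 1 for Prkcd and -1 for Prkch. With gene bodies extended by 10 kb, Dgka gained 1 knockout-only and 1 shared region, and Rasgrp4 gained 1 shared region. Dgkz gained 1 knockout-only region, which took its difference to 1. Unshared peaks had a median pileup of 7 in both lists, which limits what the absence of a call shows.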
